A study of Mus musculus with 12 samples.

Results

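The genes described here are Nfe2l2, which encodes the transcription factor Nrf2, and 9 genes known as its targets in the response to oxidants and electrophiles: Srxn1, Osgin1, Hmox1, Txnrd1, Gclm, Gclc, Nqo1, Slc7a11 and Sqstm1. They are 10 of the 55573 gene identifiers in the deposited count table, found by symbol through the GRCm38 annotation, with no threshold on any value. The list was selected on earlier results of the same libraries, and which of the measured values guided it is not recorded. Every contrast against whole muscle is therefore treated as used by that choice. Contrasts between fiber groups may have been used too, so their p-values are no independent test. Levels and fold changes of the 10 genes against whole muscle are given as a description, with no p-value. How many of the 10 lay past the threshold used for all genes is printed beside the share of all genes that did, and nothing is read from that count.

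RNA was sequenced from the extensor digitorum longus (EDL), a fast hindlimb muscle, of C57BL/6 mice with no genetic change or treatment named. The 12 libraries form 4 groups of 3: 1 isolated myofiber, 5 pooled myofibers, 20 pooled myofibers, and the intact whole muscle. All libraries were made from total RNA with SMART-Seq HT, a kit that turns very small amounts of RNA into full-length cDNA. A single myofiber was put straight into diluted lysis buffer from the same kit, whereas RNA of the whole muscle was taken out by the Trizol method, per the labels. How the pools were lysed is not spelled out. No animal, age, sex or batch is named, so p-values measure only the spread between these libraries, which may be technical.

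Nrf2 is held in the cytoplasm by Keap1, which passes it to a Cul3 ubiquitin ligase for destruction. Oxidants and electrophiles modify cysteines of Keap1, Nrf2 then accumulates, pairs with a small Maf protein in the nucleus and binds the antioxidant response element of its target genes. Bach1 competes for the same elements and holds some targets, Hmox1 above all, in check. In skeletal muscle the pathway is known for its response to contraction, injury and other sources of reactive oxygen.

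The sequences below show the matches to 2 short motifs just before the start sites of 4 of the genes. TGACNNNGC is the core of the antioxidant response element and TGACTCA is the element bound by AP-1, which Nrf2 and Maf proteins can also recognise. Where TGACTCA is followed by GC, both motifs match the same stretch. Windows from 250 bases before to 50 bases after each annotated start site, from RefSeq on GRCm38.p6, were searched on both strands. A window was at hand for 8 of the 10 genes, all but Hmox1 and Gclc. The matches are in capitals, with 20 flanking bases on each side in lower case, on the plus strand of the chromosome:
Srxn1, chr2:152105402-152105505: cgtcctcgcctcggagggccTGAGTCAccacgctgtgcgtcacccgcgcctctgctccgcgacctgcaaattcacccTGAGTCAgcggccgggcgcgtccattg
Osgin1, chr8:119437030-119437076: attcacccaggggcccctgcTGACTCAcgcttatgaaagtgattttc
Gclm, chr3:122245403-122245451: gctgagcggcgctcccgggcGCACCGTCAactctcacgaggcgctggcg
Txnrd1, chr10:82859094-82859142: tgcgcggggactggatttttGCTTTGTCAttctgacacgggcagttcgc

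The Srxn1 window holds TGACTCA at 2 places on the other strand, printed as TGAGTCA, beginning 102 and 45 bases before the start site. In Osgin1 the motif lies 97 bases before the RefSeq start site that was searched. That site lies inside the annotated gene span (119434124 to 119446256), downstream of its first base. In Gclm TGACNNNGC on the other strand lies 134 bases before it, and in Txnrd1 92 bases before 1 of its 3 annotated start sites. Nfe2l2 has TGACNNNGC 240 bases before its start site and Srxn1 has a further one 28 bases after its own. No match was found in the windows of Nqo1, Slc7a11 and Sqstm1. TGACNNNGC was thus present in 4 of 8 genes, against 14.0% of the 27025 genes with a window, and TGACTCA in 2 of 8 against 5.95%. A match is a string of letters and shows no binding.

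Library depth ranged from 4702823 to 27787120 counted reads. Levels are given as CPM, the usual counts per unit of library total, here after scaling the totals with TMM factors. The factors were 0.524 to 0.890 in libraries of 1 or 5 fibers, 1.04 to 2.82 in pools of 20 and 1.42 to 1.61 in whole muscle. Where a library is said to lie above or below others in level, CPM with these factors is meant. Without them that order can change. Reads on 1506 olfactory, vomeronasal and taste receptor genes, known from sensory cells, served as a measure of background. At least 1 such read was found on 2.32% to 4.85% of these genes in whole muscle, on 4.85% to 26.7% in single fibers, on 58.0%, 68.9% and 4.58% in the pools of 5, and on 78.7% to 97.3% in the pools of 20. Single fiber 2 and 5-fiber pool 3 stood apart: their counts differed more from the others of their group than those did from each other. Values without them are given beside the comparisons over all fiber libraries and between single fibers and pools of 20. The counts of 20-fiber pool 2 also differed more from its group. It had the lowest depth, a TMM factor of 2.82 against 1.04 and 1.39, and the lowest myofiber marker sum. Myofiber markers such as Acta1 and Ckm were detected in every library, with a summed level of 83032 to 110290 CPM in whole muscle, 174130 to 305570 in single fibers, 59116 to 338610 in pools of 5 and 16884 to 108750 in pools of 20.

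Nfe2l2 (chromosome 2, 75675513 to 75704641, GRCm38) was higher in single fibers and pools of 5 than in whole muscle. It was measured at 92.7, 50.01 and 82.2 CPM in single fibers, at 93.4, 53.9 and 71.5 in pools of 5, at 36.3, 7.39 and 42.4 in pools of 20 and at 30.6, 27.5 and 25.9 in whole muscle. With TMM factors all 6 libraries of 1 or 5 fibers lay above every whole muscle library, and 20-fiber pool 2 lay far below the rest. Per raw library total that order did not hold. Single fiber 2 had 775 of 27787120 reads, a lower share than 771 of 20895762 in whole muscle 3. Whole muscle is a bulk sample of many cell types, in which fewer cells of a type and less RNA per cell cannot be told apart. Against whole muscle, its log2 fold change was 1.39 (SE 0.32) in single fibers and 1.31 (SE 0.31) in pools of 5. In pools of 20 it was 0.30 (SE 0.48), with values on both sides of whole muscle.

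Sqstm1 (chromosome 11, 50199366 to 50210827) encodes p62, an autophagy receptor that binds Keap1 and removes it, and is itself a target of Nrf2. It was measured at 1076, 330.2 and 991 CPM in single fibers, at 634, 369 and 669.6 in pools of 5, at 289, 58.7 and 278 in pools of 20 and at 279, 295 and 291 in whole muscle. With TMM factors every library of 1 or 5 fibers lay above whole muscle, which was tightly grouped at 288 ± 8.02 CPM (SD, n = 3). Per raw library total, single fiber 2 and 5-fiber pools 1 and 2 lay below it. Single fiber 2 had 5117 of 27787120 reads, against 8664 of 20895762 in whole muscle 3. The log2 fold change of Sqstm1 against whole muscle was 1.46 (SE 0.46) in single fibers, 0.87 (SE 0.36) in pools of 5 and -0.20 (SE 0.66) in pools of 20. Of the exon sequence of Sqstm1, 17.3% overlaps exons of Mrnip on the opposite strand, and reads from the pair cannot be told apart where the counting did not use strand.

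Srxn1 (chromosome 2, 152105516 to 152111376) encodes sulfiredoxin, which restores peroxiredoxins that peroxide has over-oxidised. Its level was 1564, 59.5 and 2017 CPM in single fibers and 800.3, 388 and 386 in pools of 5. In pools of 20 it was 13.6, 7.54 and 14.6 CPM, and in whole muscle 14.0, 18.4 and 17.9. The libraries of 1 or 5 fibers all lay above whole muscle, with single fiber 2 nearest to it, while pools of 20 lay at or below it. Among single fibers the highest value was 33.9 times the lowest, the widest spread within a group among the members detected above background. The log2 fold change against whole muscle was 6.20 (SE 1.19), or 73.3-fold, in single fibers and 4.90 (SE 0.47), or 29.9-fold, in pools of 5. In pools of 20 it was -0.18 (SE 0.32) with TMM factors and 0.06 with upper-quartile factors, so its direction depended on the scaling.

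Txnrd1 (chromosome 10, 82833951 to 82897712) encodes cytosolic thioredoxin reductase, which keeps thioredoxin reduced. It was measured at 205, 32.0 and 158 CPM in single fibers, at 147, 79.5 and 39.3 in pools of 5, at 32.8, 11.5 and 30.1 in pools of 20 and at 28.0, 33.8 and 29.9 in whole muscle. Single fiber 2, which was also the lowest single fiber for Srxn1, lay within the whole muscle range, and the other libraries of 1 or 5 fibers lay above it. Per raw library total, single fiber 2 and 5-fiber pool 3 lay below whole muscle. The latter had 601 of 24719718 reads, against 889 of 20895762 in whole muscle 3. Txnrd1 had a log2 fold change against whole muscle of 2.09 (SE 0.61) in single fibers and 1.48 (SE 0.48) in pools of 5. In pools of 20 it was -0.01 (SE 0.40) with TMM factors and 0.20 with upper-quartile factors.

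Osgin1 (chromosome 8, 119434124 to 119446256), an oxidative stress induced growth inhibitor, was the only one of the 10 genes that was higher than every whole muscle library in all 9 fiber libraries. It was measured at 495, 164 and 469 CPM in single fibers, at 544, 262 and 437 in pools of 5 and at 176, 46.4 and 148 in pools of 20. Whole muscle had 6.70, 9.87 and 7.99 CPM. The lowest fiber library, 20-fiber pool 2, was thus still above the highest whole muscle library. The log2 fold change was 5.51 (SE 0.53), or 45.5-fold, in single fibers, 5.59 (SE 0.45), or 48.1-fold, in pools of 5 and 4.19 (SE 0.60), or 18.3-fold, in pools of 20. Osgin1 and Srxn1 therefore both stood far above whole muscle in libraries of 1 or 5 fibers, and in pools of 20 Osgin1 did and Srxn1 did not.

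**Figure D1:**
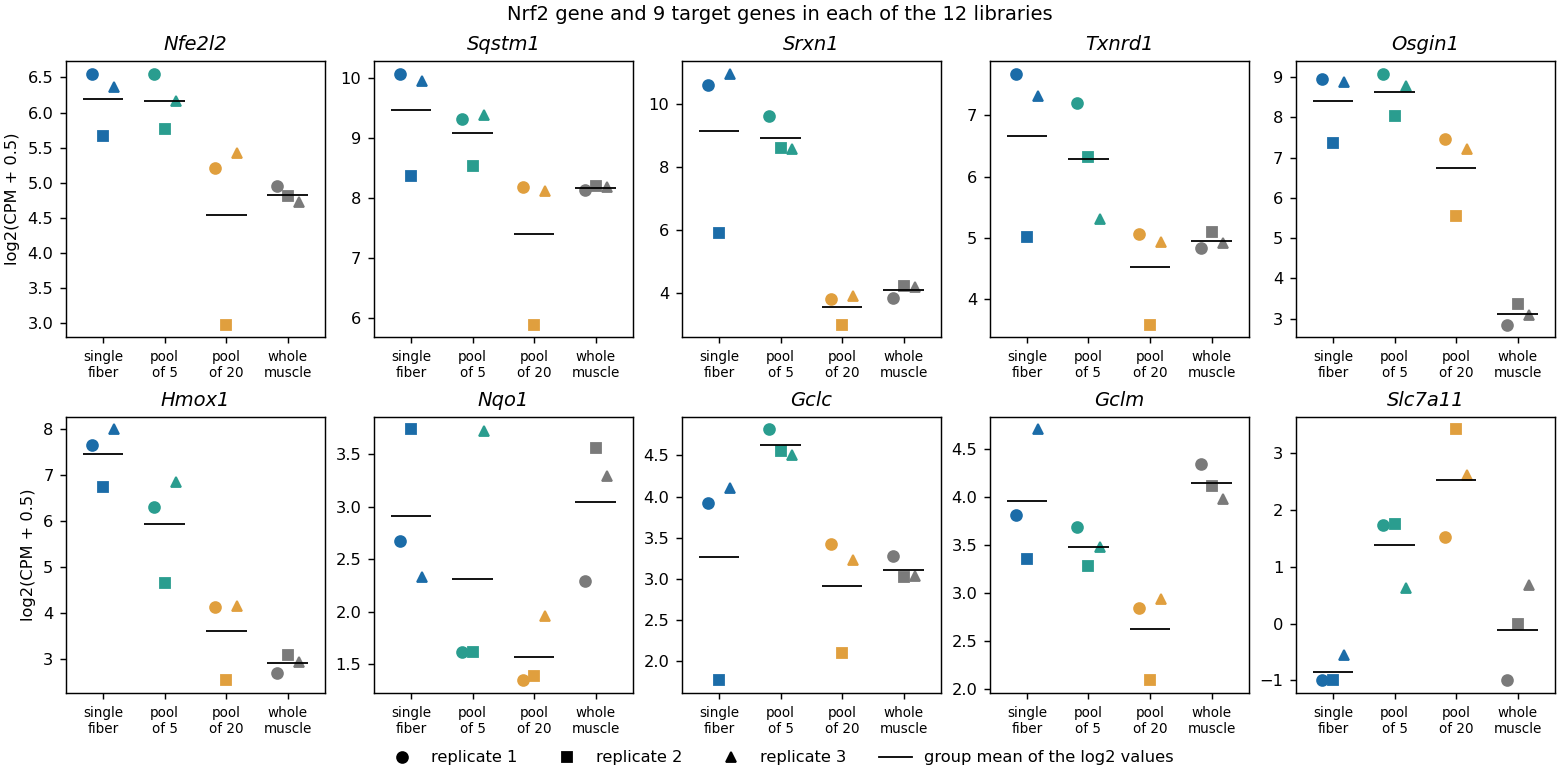
Level of each gene in the 12 libraries, as log2(CPM + 0.5) on the vertical axis, by group; symbols mark the replicate and bars the mean of the log2 values in a group of 3. Osgin1 lies above whole muscle in all 9 fiber libraries, Srxn1 in the 6 libraries of 1 or 5 fibers, and Gclm below whole muscle in 8 of 9.

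Hmox1 (chromosome 8, 75093621 to 75100589) encodes heme oxygenase 1, which degrades heme and is repressed by Bach1. It was measured at 200.1, 107 and 255 CPM in single fibers, at 78.6, 24.6 and 114 in pools of 5, at 17.1, 5.28 and 17.2 in pools of 20 and at 5.93, 7.95 and 7.12 in whole muscle. All 9 fiber libraries but 20-fiber pool 2 lay above whole muscle, and single fibers did not overlap pools of 20. Hmox1 had a log2 fold change of 4.73 (SE 0.44), or 26.6-fold, in single fibers, 3.28 (SE 0.54), or 9.70-fold, in pools of 5 and 1.20 (SE 0.37), or 2.30-fold, in pools of 20.

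Nqo1 (chromosome 8, 107388225 to 107403206), a quinone reductase often used as the reference target of Nrf2, showed no such excess in the fiber libraries. It was measured at 5.89, 12.8 and 4.52 CPM in single fibers, at 2.56, 2.55 and 12.7 in pools of 5, at 2.04, 2.11 and 3.38 in pools of 20 and at 4.39, 11.3 and 9.27 in whole muscle. Its highest values among the fiber libraries were those of single fiber 2 and 5-fiber pool 3, the pair that stood apart, and all 3 pools of 20 lay below whole muscle. For Nqo1 the log2 fold change was -0.17 (SE 0.49) in single fibers, -0.55 (SE 0.68) in pools of 5 and -1.37 (SE 0.45) in pools of 20.

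Gclc and Gclm encode the catalytic and the modifier subunit of glutamate cysteine ligase, the first and limiting enzyme of glutathione synthesis. Gclc (chromosome 9, 77754535 to 77794485) was measured at 14.6, 2.90 and 16.7 CPM in single fibers, at 27.7, 23.0 and 22.1 in pools of 5, at 10.2, 3.77 and 8.88 in pools of 20 and at 9.16, 7.63 and 7.69 in whole muscle. Pools of 5 lay above every library of the other groups with TMM factors, but not per raw library total. Their log2 fold change against whole muscle was 1.51 (SE 0.28), against 0.47 (SE 0.61) in single fibers and 0.20 (SE 0.35) in pools of 20. Gclm (chromosome 3, 122245557 to 122270732) was lower in most fiber libraries and was measured at 13.5, 9.74 and 25.6 CPM in single fibers, at 12.4, 9.26 and 10.7 in pools of 5, at 6.68, 3.77 and 7.19 in pools of 20 and at 19.9, 16.8 and 15.3 in whole muscle. Only single fiber 3 lay above whole muscle for Gclm, and the other 8 fiber libraries lay below it. Its log2 fold change was -0.10 (SE 0.43) in single fibers, -0.75 (SE 0.28) in pools of 5 and -1.23 (SE 0.32) in pools of 20. Of the Gclm transcript windows, 3.24% were shared with other annotated genes.

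Slc7a11 (chromosome 3, 49892526 to 50443614) encodes the cystine transporter that supplies cysteine for glutathione. It had 0, 0 and 2 reads in single fibers, 31, 18 and 16 in pools of 5, 21, 135 and 119 in pools of 20 and 0, 14 and 33 in whole muscle. These reads lay within the background, set as the 99th percentile of reads per kilobase over the receptor genes, in 10 of the 12 libraries. The exceptions were 5-fiber pool 3 and whole muscle 3. Gclm and Gclc lay within that background only in 20-fiber pool 2, and the other members lay above it in all libraries. Slc7a11 was highest in pools of 20, the group with the largest share of receptor genes with a read, and the part of such background in its level was not tested.

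**Figure D2:**
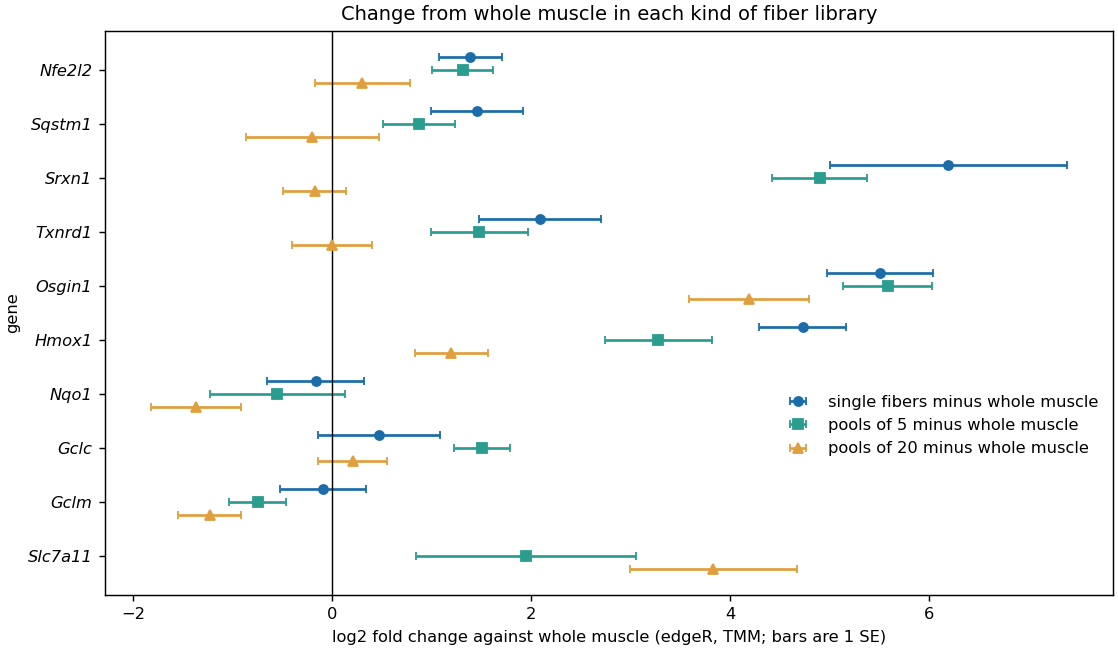
Log2 fold change of each gene against whole muscle (horizontal axis; edgeR with TMM factors) in single fibers, pools of 5 and pools of 20, with bars of 1 SE. Slc7a11 had too few reads for a value in single fibers. The 3 comparisons share the same 3 whole muscle libraries.

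Compared per kilobase of exon, Sqstm1 had the highest mean level of the 10 genes in whole muscle, at 85.9 CPM per kilobase, followed by Nfe2l2 at 7.37, Srxn1 at 5.94 and Nqo1 at 5.35. Txnrd1, Hmox1 and Osgin1 followed at 4.31, 3.997 and 3.06, then Gclm at 2.76, Gclc at 2.17 and Slc7a11 at 0.0384. Sqstm1 and Nfe2l2 stood clear of the next gene, while from Srxn1 down to Gclm each neighbour overlapped the next. In single fibers the mean of Srxn1 came first at 430.4 CPM per kilobase, followed by Sqstm1 at 238, Osgin1 at 141 and Hmox1 at 107, each overlapping the next. After these came Nfe2l2 at 19.7, Txnrd1 at 18.6, Nqo1 at 4.99, Gclc at 3.02, Gclm at 2.59 and Slc7a11 at 0.00424. Hmox1 lay clear of Nfe2l2, and from Nfe2l2 down to Gclm the neighbours overlapped. In pools of 5 the leading genes were Srxn1 at 186, Sqstm1 at 166 and Osgin1 at 155, each overlapping the next, and in pools of 20 they were Sqstm1 at 62.2 and Osgin1 at 46.2.

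Ratios between 2 genes within a library do not depend on how libraries are scaled to one another. Srxn1 had 3.16, 0.363 and 4.30 reads for each read of Osgin1 in single fibers, and 1.47, 1.48 and 0.883 in pools of 5. The ratio was 0.0771, 0.162 and 0.0986 in pools of 20 and 2.09, 1.86 and 2.24 in whole muscle. Pools of 20 thus lay below every other library, with the next lowest being single fiber 2. The ratio of Gclc to Gclm was 1.08, 0.298 and 0.651 in single fibers, 2.23, 2.48 and 2.07 in pools of 5, 1.53, 1.00 and 1.24 in pools of 20 and 0.461, 0.454 and 0.502 in whole muscle. Both kinds of pool lay above whole muscle in every library, and pools of 5 above pools of 20, while single fibers spanned the whole muscle range.

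**Figure D3:**
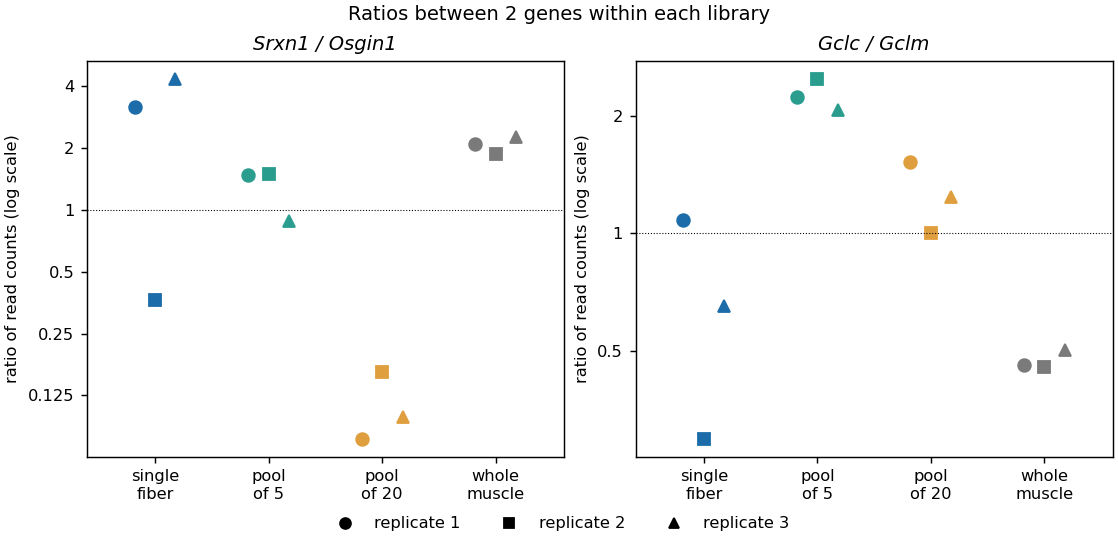
Ratio of Srxn1 to Osgin1 reads (left) and of Gclc to Gclm reads (right) within each library, on log axes, with 1 symbol for each replicate. Pools of 20 have 0.0771 to 0.162 reads of Srxn1 for each read of Osgin1, below all other libraries, and pools of 5 have the highest Gclc to Gclm ratios.

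The 10 genes together were summed at 398 to 428 CPM in whole muscle, with 68.8% to 70.4% of it from Sqstm1 and 3.52% to 4.33% from Srxn1. In single fibers 1 and 3 the sum was 3667 and 4019 CPM, of which Srxn1 made up 42.7% and 50.2%. In single fiber 2 the sum was 768 CPM with 7.75% from Srxn1. The sum was 1214 to 2343 CPM in pools of 5 and 157 to 586 in pools of 20, where Srxn1 made up 2.32% to 4.81%.

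Averaged over the 3 kinds of fiber library, 8 of the 10 genes were higher than whole muscle, with a median log2 fold change of 0.85 beside 0.40 over all 22110 genes tested. The median over all genes was 0.56 with RLE factors and 0.69 with upper-quartile factors, and the direction of the 10 members was the same under all 3 scalings. The values of Osgin1 (5.03, SE 0.73), Srxn1 (3.55, SE 0.87) and Hmox1 (3.01, SE 0.61) lay farthest above whole muscle. These 3 of the 10 lay past an adjusted p under 0.05, as did 15.2% of all genes, 7.46% as higher and 7.78% as lower, and nothing is read from that count. It was 2 without any 1 of the whole muscle libraries, and 4 without 20-fiber pool 2 or without 5-fiber pool 3. With upper-quartile factors 65.1% of all genes past the threshold were higher, against 49.0% with TMM factors. Only Osgin1 showed no overlap between fiber and whole muscle libraries, as did 3.22% of all genes in that direction. Gclm (-0.78, SE 0.36) and Nqo1 (-0.76, SE 0.51) were the 2 members below whole muscle. Txnrd1 (1.11, SE 0.57), Nfe2l2 (0.95, SE 0.49), Slc7a11 (0.74, SE 1.02), Sqstm1 (0.65, SE 0.61) and Gclc (0.65, SE 0.47) lay above it. Without the 5 libraries in which over 50% of receptor genes had a read, Srxn1 stood at 5.20, Hmox1 at 4.22, Nqo1 at 0.07 and Slc7a11 at -1.27. Without single fiber 2 and 5-fiber pool 3 together, Srxn1 stood at 3.73, Osgin1 at 5.08, Hmox1 at 2.88, Txnrd1 at 1.33 and Nqo1 at -1.44.

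Within each kind of library the same threshold was passed by 6 of the 9 members tested in single fibers, all higher, where 33.6% of all genes passed it, 13.9% as higher and 19.8% as lower. In pools of 5 it was passed by 5 of 10, all higher, against 8.85% of all genes, 4.63% as higher and 4.22% as lower. In pools of 20 it was passed by 3 genes as higher (Osgin1, Hmox1 and Slc7a11) and 2 as lower (Gclm and Nqo1), against 43.9% of all genes, 30.3% as higher and 13.5% as lower. Since the list was chosen with results of these libraries known, nothing is read from these counts. They also moved with single libraries: in single fibers the count was 2 without any 1 of the whole muscle libraries, and in pools of 5 it rose to 9 with 5-fiber pool 3 left out and dropped to 2 with 5-fiber pool 1 left out. It was 0 for pools of 5 without whole muscle 1 and 1 without either of the other whole muscle libraries. The share of all genes that passed in these reduced fits is not given, so nothing is read from these counts about the members.

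The genes were compared between the fiber groups, which differ in fiber number and also in background reads. The parts of these in a difference cannot be told apart. The list may have been chosen on these contrasts too, so the p-values below are no independent test. Srxn1 was higher in single fibers than in pools of 20 by 6.33 on the log2 scale (SE 1.18), or 80.2-fold, with no overlap (edgeR's quasi-likelihood test with Benjamini-Hochberg adjustment, adjusted p = 0.00611). Hmox1 was higher by 3.52 (SE 0.60), or 11.5-fold, also with no overlap (edgeR adjusted p = 0.00462). Txnrd1 was higher by 2.08 (SE 0.64), or 4.22-fold, with single fiber 2 inside the range of the pools (edgeR adjusted p = 0.0221). The Txnrd1 difference did not pass without single fiber 1 (edgeR adjusted p = 0.0642) or without 20-fiber pool 2 (edgeR adjusted p = 0.0847); over all alternatives its adjusted p ranged from 0.00451 to 0.0989. The adjusted p over the alternatives ranged from 3.71e-11 to 0.0891 for Srxn1 and from 4.91e-09 to 0.0891 for Hmox1, each past the threshold under all but 1 of them. Without single fiber 2 the difference was 7.25 for Srxn1, 4.12 for Hmox1 and 2.88 for Txnrd1. Slc7a11 was lower in single fibers (edgeR adjusted p = 0.00622), with 2 reads against 275. It passed the filter on low counts only through its reads in pools of 20, which set the direction beforehand. Nothing is therefore read from its p-value. Per raw library total, without TMM factors, the pooled ratio was 0.00349 (exact 95% interval 4.2e-04 to 0.0127, covering counting error only). The fit with TMM factors gave a ratio of 0.00683. The reads of Slc7a11 in pools of 20 lay within the background density. Over the alternatives its adjusted p ranged from 3.28e-06 to 0.0891. These 4 of 10 genes compare with 36.1% of all genes, 8.52% higher and 27.5% lower in single fibers, where the median of all 16978 genes tested was -0.74.

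The other 6 members did not pass in that comparison, with edgeR adjusted p from 0.0945 to 0.767. Of these, Sqstm1 differed by 1.67 (SE 0.75), Osgin1 by 1.31 (SE 0.65), Nqo1 by 1.14 (SE 0.72), Gclm by 1.11 (SE 0.53), Nfe2l2 by 1.10 (SE 0.54) and Gclc by 0.26 (SE 0.63), all towards single fibers. With Srxn1 and Hmox1, 6 of the 10 genes were higher in every single fiber than in every pool of 20. The others were Sqstm1, Nqo1, Gclm and Nfe2l2. The same held for 21.1% of all genes, but also for 9 of 10 myofiber markers, whose median log2 difference was 1.46. It held for 12 of the 24 antioxidant enzymes not chosen as Nrf2 targets (median 1.11), while 1 of them was lower without overlap. The lack of overlap was thus not particular to the members, nor were differences as large as those of Sqstm1, Nqo1, Gclm and Nfe2l2. Srxn1 (6.33) and Hmox1 (3.52) lay above the largest difference among the markers (3.19) and among these enzymes (2.86). Gclm passed without single fiber 2 (edgeR adjusted p = 0.0228, within 0.0228 to 0.27 over the alternatives) and Nqo1 without single fiber 3 (edgeR adjusted p = 0.0463, within 0.0463 to 0.382). Osgin1 passed with DESeq2 (adjusted p = 0.0441, within 0.0441 to 0.327). Sqstm1 passed with DESeq2 (adjusted p = 0.014) and with all 4 groups in 1 edgeR fit (adjusted p = 0.0456), within 0.014 to 0.288, and Gclm passed in that fit too (edgeR adjusted p = 0.0283). A p that misses the threshold does not show that the levels were alike. Osgin1, the member with the largest fold change against whole muscle in pools of 20, had adjusted p = 0.127 by edgeR and overlapped between the groups.

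Between single fibers and pools of 5, edgeR called 0 of the 10 genes (0.0157% of all genes were called), with 2 members at an unadjusted p under 0.05 (8.91% of all genes), and DESeq2 called 1. Their log2 differences ran from -5.15 for Slc7a11, which had 2 reads against 65, through -1.09 (SE 0.65) for Gclc to 1.23 (SE 1.03) for Srxn1 and 1.44 (SE 0.61) for Hmox1. Slc7a11 passed the filter here only through its reads in pools of 5. Nfe2l2 differed by 0.03 with TMM factors and by -0.06 and -0.22 with RLE and upper-quartile factors. Between pools of 5 and pools of 20, edgeR again called 0 of 10 (0.0% of all genes), with 4 members at an unadjusted p under 0.05 (8.78% of all genes) and 2 called by DESeq2. Here 8 of the 10 members were higher in every pool of 5 than in every pool of 20, as were 7.84% of all genes, with Srxn1 at 5.36 (SE 0.86) and edgeR adjusted p = 0.372. Nqo1 and Slc7a11 were the 2 that overlapped. Of the 10 myofiber markers 0 were higher without overlap, and of the 24 antioxidant enzymes not chosen as Nrf2 targets 4 were. The same held for 5 of the 10 Nrf2 regulators described below (median 1.05) and for 2 of 36 other Nrf2 targets. All 10 markers and all 24 enzymes still had a positive log2 difference, with a median of 1.35 and 0.88.

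The lists of regulators, other targets and other enzymes were also chosen with earlier results of these data known. Their counts and p-values are a description of these libraries and no independent test. Of the 10 listed regulators of Nrf2, 2 rose and 0 fell in isolated fibers, where 7.46% of all genes rose and 7.78% fell. By DESeq2 0 fell too. In edgeR 5 of the 10 had an unadjusted p under 0.05, against 33.4% of all genes. The median log2 fold change of the regulators was 0.81 beside 0.40 for all genes. Maff, a small Maf protein that can pair with Nrf2, rose by 4.62 (SE 0.68; edgeR adjusted p = 2.46e-04), from 0.780 ± 0.460 CPM (SD, n = 3) in whole muscle to 27.5 ± 21.2 (SD, n = 9). Bach1, the repressor that competes with Nrf2, rose by 2.74 (SE 0.55; edgeR adjusted p = 0.00333), from 3.50 ± 0.553 CPM to 34.6 ± 39.8. Fiber and whole muscle libraries did not overlap for either gene. Bach1 had 79.2, 17.8 and 122 CPM in single fibers, 30.2, 23.1 and 16.9 in pools of 5, 9.85, 4.82 and 7.52 in pools of 20 and 4.08, 2.98 and 3.42 in whole muscle. Pools of 20 lay below every other fiber library and above every whole muscle library, and single fiber 2 lay among the pools of 5.

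The remaining regulators did not pass the test. Keap1, the Nrf2 inhibitor, stood at -0.53 (SE 0.41; edgeR adjusted p = 0.396), and the other small Maf genes at 0.40 (SE 0.47; edgeR adjusted p = 0.633) for Mafg and 1.48 (SE 0.56; edgeR adjusted p = 0.07) for Mafk. Of the ligase subunits, Cul3 stood at 1.49 (SE 0.60; edgeR adjusted p = 0.0874) and Rbx1 at 0.21 (SE 0.56; edgeR adjusted p = 0.906). Mafk and Cul3 passed with RLE or upper-quartile factors and with DESeq2, so that 4 regulators rose under those settings, as they did without 20-fiber pool 2. In single fibers alone 5 regulators rose against whole muscle: Maff, Bach1, Mafk, Cul3 and Rbx1, where 13.9% of all genes rose. Maff, Bach1, Mafk, Cul3 and Rbx1 were also higher in single fibers than in pools of 20, Bach1 by 2.95 (SE 0.64; edgeR adjusted p = 0.00727) and Maff by 2.24 (SE 0.63; edgeR adjusted p = 0.0142). These 5 of 10 compare with 8.52% of all genes, and both comparisons use the same single fiber libraries.

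Among the wider set of Nrf2 targets the genes that passed the test were lower in isolated fibers. Of 42 other listed targets, 37 were tested in isolated fibers against whole muscle, 0 rose and 8 fell by edgeR, against 7.46% and 7.78% of all genes, and their median was -0.41 beside 0.40 for all genes. An unadjusted p under 0.05 was reached by 10 of the 37, and DESeq2 called 1 higher and 7 lower. Mgst1, a microsomal glutathione transferase, fell by 4.82 (SE 0.42; edgeR adjusted p = 8.87e-07), from 91.5 ± 24.8 CPM (SD, n = 3) to 3.41 ± 1.88 (SD, n = 9). Idh1, which makes NADPH in the cytosol, fell by 1.89 (SE 0.45; edgeR adjusted p = 0.01). The iron exporter Slc40a1 fell by 1.68 (SE 0.47; edgeR adjusted p = 0.0239), a call lost without whole muscle 1 (edgeR adjusted p = 0.0628) or whole muscle 2 (edgeR adjusted p = 0.0836), within a range of 3.2e-07 to 0.12 over the alternatives. The others that fell were G6pdx, Pgd and Tkt of the pentose phosphate pathway, the biliverdin reductase Blvrb and the carbonyl reductase Cbr3. Only 4 fell without whole muscle 1, 5 without either of the other whole muscle libraries, and 15 without single fiber 2 and 5-fiber pool 3 together.

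The ferritin chains Fth1 and Ftl1 store iron and were the most abundant of these targets. Their levels differed between kinds of library and also within pools of 5. Pools 1, 2 and 3 of 5 fibers had 2066, 1204 and 9986 CPM of Fth1 and 114, 51.7 and 1255 CPM of Ftl1. Over all fiber libraries Fth1 stood at 0.76 (SE 0.87; edgeR adjusted p = 0.62) and Ftl1 at 0.92 (edgeR adjusted p = 0.467). In single fibers alone both rose against whole muscle, Ftl1 by 2.26 (SE 0.31; edgeR adjusted p = 0.00247) and Fth1 by 1.61 (SE 0.27; edgeR adjusted p = 0.00533), the 2 that rose among 33 tested there, where 9 fell, against 13.9% and 19.8% of all genes. Without the 5 libraries rich in receptor reads they stood at 2.63 for Ftl1 and 1.79 for Fth1 (edgeR adjusted p = 0.00226 and 0.00481, within 0.00226 to 0.9998 over the alternatives for Ftl1 and 0.00481 to 0.9998 for Fth1). Of the Ftl1 transcript windows 74.8% are shared with other annotated genes, so its counts are uncertain. In pools of 5, 4 of 35 passed, all lower, where 4.63% of all genes were higher and 4.22% lower. In pools of 20, 7 rose and 13 fell of 37, where 30.3% of all genes were higher and 13.5% lower.

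Of 24 antioxidant enzymes not chosen as Nrf2 targets, 0 rose and 6 fell in isolated fibers by edgeR, against 7.46% and 7.78% of all genes, with a median of -0.60 and 9 at an unadjusted p under 0.05. Gpx3, the secreted glutathione peroxidase, fell by 2.23 (SE 0.45; edgeR adjusted p = 0.00353), from 167 ± 15.5 CPM (SD, n = 3) to 36.9 ± 19.0 (SD, n = 9). Gpx8 fell by 1.60 (SE 0.42; edgeR adjusted p = 0.018), a call lost without any 1 of the whole muscle libraries. Catalase, Cat, fell by 1.34 (SE 0.40; edgeR adjusted p = 0.0337), a call lost when single fiber 1 or 3, pool 1 or 2 of 5 fibers, or any of the whole muscle libraries was left out. Sod3, Gpx7 and Prdx4 also fell, and the most abundant members, Gpx4 at -1.01 (edgeR adjusted p = 0.287) and Sod2 at -0.57 (edgeR adjusted p = 0.522), did not pass. Of the Gpx4 transcript windows 56.25% are shared with other annotated genes, so its counts are uncertain. In single fibers 6 of the 24 rose (Sod1, Glrx, Glrx2, Glrx3, Txnrd2 and Msrb3) and 5 fell, against 13.9% and 19.8% of all genes. The count that fell was 2 without whole muscle 1, 2 or 3, and DESeq2 called 2 higher and 8 lower.

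**Figure D4:**
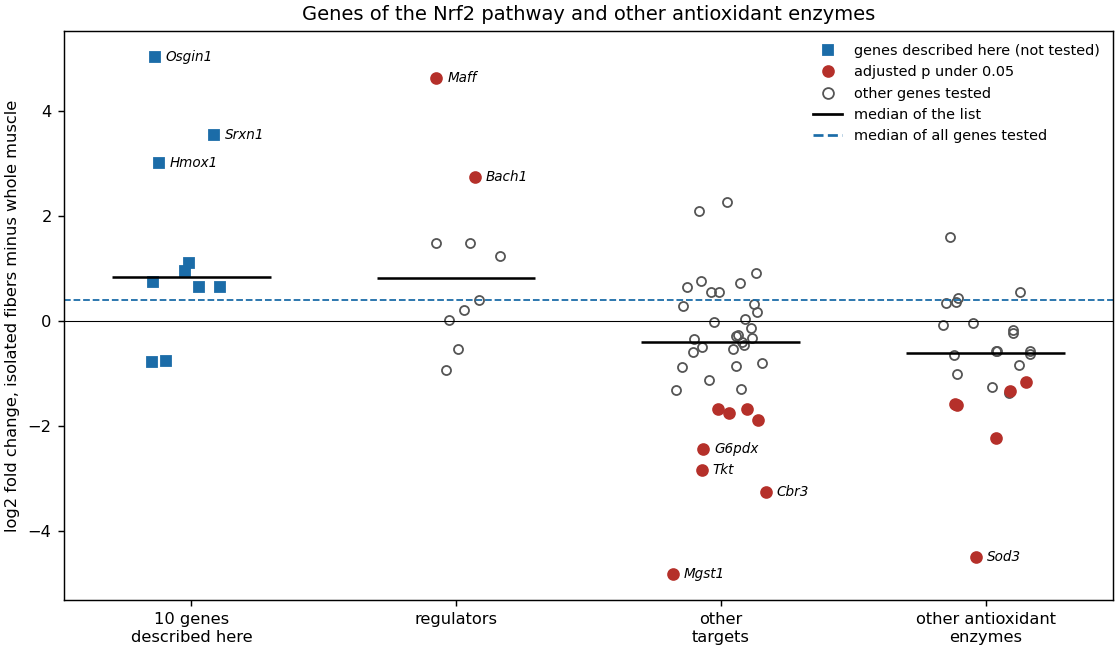
Log2 fold change of isolated fibers against whole muscle (vertical axis; mean of the 3 fiber groups) for the 10 genes described here, the regulators, the other Nrf2 targets and other antioxidant enzymes, 1 point for each gene tested. Maff and Bach1 passed the test as higher, 8 other targets and 6 other enzymes as lower, and the dashed line marks the median of all genes at 0.40.

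Markers of endothelial cells, fibroblasts, adipocytes and red cells were lower in every single fiber than in whole muscle. The summed level of 10 endothelial markers was 2.39 to 7.55 CPM in single fibers, 27.3 to 356 in pools of 5, 42.3 to 242 in pools of 20 and 259 to 325 in whole muscle, with Pecam1 at 0 in single fibers 1 and 2. The 10 fibroblast markers summed to 11.8 to 273 CPM in single fibers, 59.2 to 587 in pools of 5, 90.5 to 596 in pools of 20 and 4152 to 4663 in whole muscle. The 6 adipocyte markers summed to 0.129 to 0.664, 49.4 to 248, 17.6 to 248 and 1407 to 1695 CPM in the same order, and the 6 red cell markers to 0.354 to 1.41, 108 to 455, 19.9 to 351 and 605 to 899.

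Macrophages are a known source of Hmox1 in muscle. The 12 macrophage markers summed to 279, 20.8 and 283 CPM in the single fibers, 49.2 to 71.7 in pools of 5, 32.0 to 61.6 in pools of 20 and 482 to 559.7 in whole muscle. Of the single fiber sums 243, 1.48 and 264 CPM came from Cd68 alone, and without it they were 35.9, 19.4 and 18.4, against 476 to 552 in whole muscle. Between 4 and 9 of the 12 markers were at 0 in each single fiber, C1qa and Fcer1g in all 3. Cd68 was thus high in single fibers 1 and 3, the same libraries in which Srxn1 and Hmox1 were highest. Mrc1, a mannose receptor of resident macrophages, was measured at 14.6 to 33.1 CPM in single fibers and 21.4 to 24.4 in whole muscle, with a log2 fold change of -0.12 (edgeR adjusted p = 0.795). Of the 12 markers, 1 rose and 9 fell in single fibers. Cd68 and Mrc1 are named after their values were seen. The 6 satellite cell markers summed to 65.9 to 172 CPM in single fibers, 55.2 to 169 in pools of 5, 31.5 to 64.6 in pools of 20 and 41.6 to 52.3 in whole muscle. The higher sum in single fibers came from Sdc4, a syndecan named after its values were seen, at 61.9 to 168 CPM there and 15.8 to 21.2 in whole muscle (2.62 on the log2 scale, SE 0.41; edgeR adjusted p = 0.00389). Of the other satellite cell markers 3 fell in single fibers by edgeR (Pax7, Vcam1 and Chodl), and the median over the 6 was -2.18 beside -0.12 for all genes. The 6 Schwann cell markers summed to 4.32 to 17.9, 13.7 to 27.9, 17.9 to 28.0 and 229 to 304 CPM in the same order. Their part in the levels of the 10 genes was not tested.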

How the data were processed

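The authors deposited raw read counts per Ensembl gene for 12 libraries. Per the submitters' processing notes, HISAT2, SAMtools and featureCounts were used on GRCm38 (mm10); their versions, strand and multi-mapping settings and the annotation release are not given in the sources used here. Symbols, coordinates and exon lengths came from GENCODE vM21, which held 55480 of the 55573 identifiers. Counts were fitted with edgeR 4.0.16 in R 4.3.3 (TMM factors, filterByExpr, quasi-likelihood test, Benjamini-Hochberg adjustment over all genes tested, adjusted p under 0.05). Pairs of groups were fitted with their 6 libraries alone, and isolated fibers against whole muscle on all 12. DESeq2 1.42.0, other scaling factors, no filter, a replicate block, 1 fit of all groups and leaving out libraries were the alternatives. The fits were tested on simulated data. The members and lists were chosen with earlier results of these data known. Every member is named. Of each other list the text names the genes past the test with the largest changes (up to 3 in each direction, mean of 10 CPM or more) and the 2 most abundant, and always Keap1, Bach1, Maff, Mafg and Mafk. Other genes past the test are named after their values were seen. Libraries of a group were compared, and none were near copies. Transcripts were cut into windows of 50 bases, 1 in 8 taken, and looked up in all other annotated transcripts.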

Additional observations from a re-analysis of the deposited data

Results flagged for a closer look

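For 4 genes the change from whole muscle differed between single fibers and pools of 20, compared directly between the fiber groups with edgeR. The list was chosen with results of these libraries known, so this is no independent test. The difference, single fibers minus pools of 20 on the log2 scale, was 6.33 for Srxn1, 3.52 for Hmox1, 2.08 for Txnrd1 and -7.19 for Slc7a11. Srxn1 and Hmox1 were higher in every single fiber than in every pool of 20, and Txnrd1 in 2 of the 3 single fibers. The Slc7a11 value rests on 2 reads in single fibers and on reads within the background density in pools of 20. As a fitted value it is no bound on the fold. The gene passed the filter on low counts only through pools of 20, which set the direction beforehand.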

How the results depend on the processing

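With 3 libraries a group, counts of genes called moved with single libraries. The share of all genes called in fits with libraries left out is not given. Those counts therefore show only that they moved, and nothing about the members or lists. Leaving out 1 library in turn, the members called against whole muscle numbered 2 to 4 in isolated fibers, 2 to 7 in single fibers, 0 to 9 in pools of 5 and 4 to 6 in pools of 20, and between fiber groups 0 to 0 for single fibers against pools of 5, 3 to 5 against pools of 20 and 0 to 1 for pools of 5 against pools of 20 (1 without 5-fiber pool 3). The lists gave 2 to 4 regulators, 4 to 10 other targets and 2 to 9 other enzymes.

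DESeq2 called 5 members in isolated fibers (edgeR 3), 1 in single fibers against pools of 5 (edgeR 0), 2 in pools of 5 against pools of 20 (edgeR 0), 4 regulators and 10 other enzymes. The share of all genes called by DESeq2 is not given here or above, so nothing is read from its counts. With RLE and with upper-quartile factors 4 regulators and 5 other targets were called. Of all 22110 genes, 2772 and 3255 were called there, against 3370 with TMM factors. With no filter on low counts 3 members were called in pools of 5 against whole muscle (main 5). With all 4 groups in 1 fit 3 were called there, 3 in pools of 20 against whole muscle and 1 in single fibers against pools of 5.

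Added after seeing the data, the fit without the 5 libraries rich in receptor reads called 4 regulators and gave Gpx4 0.31 and Sod2 0.021. The fit without single fiber 2 and 5-fiber pool 3 called 4 regulators, 15 other targets and 12 other enzymes, and gave Rbx1 -0.26. Leaving out 1 library in turn, Rbx1 ranged from -0.11 (without 5-fiber pool 3) to 0.34, with -0.04 without single fiber 2. The share of all genes called in these 2 fits is not given, so nothing is read from the counts. The cause of these moves was not tested.

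The labels do not say that equal replicate numbers share an animal or day. Deviations of same-numbered libraries correlated at -0.402 to 0.455 over the pairs of single fibers and pools of 5, and at -0.23 to -0.147 for single fibers and pools of 20. With a replicate block 0 members were called in single fibers against pools of 20 (4 without it), 2 in pools of 5 against whole muscle, 4 in single fibers against whole muscle and 3 in isolated fibers, and Gclc stood at -0.068 in single fibers against pools of 20.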

Other observations

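The genes whose profiles over the 12 libraries lay nearest to those of the members were sought among 6030 protein-coding genes whose mean was at least 10 CPM, by the mean absolute difference of log2(CPM + 0.5) after centring each gene. This is a description over 12 libraries that share depth and background, with no test. For Srxn1 these were Myod1, the myogenic transcription factor, at 0.54 log2 units, and Mustn1 at 0.63. For Osgin1 they were Irs2, an insulin receptor substrate, at 0.41, and Nr4a3, an orphan nuclear receptor, at 0.47. For Hmox1 they were Impact and Zfp655, both at 0.50. Txnrd1 lay nearest to Ehd4 (0.18) and Ahnak (0.25), Nfe2l2 to Mcl1 (0.18) and Hnrnph1 (0.19), and Sqstm1 to Azin1 and Fermt2 (both 0.21). Gclm lay nearest to Vwa5a (0.11) and Lin7c (0.13), and Gclc to Arid4a (0.32) and Prpf38b (0.35). Among the members themselves the nearest pair was Sqstm1 and Nfe2l2 at 0.30, while the nearest member to Srxn1 was Hmox1 at 1.27 and the nearest to Osgin1 was also Hmox1 at 1.18. Nqo1 and Slc7a11 had means under 10 CPM and were given no neighbour.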
